A study of Arabidopsis with 12 samples.

Results

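The genes described here are 10 members of the XTH family of Arabidopsis, which encode xyloglucan endotransglucosylase/hydrolases: TCH4 (XTH22, AT5G57560), XTH23 (AT4G25810), XTH24 (AT4G30270), XTH25 (AT5G57550), XTH17 (AT1G65310), XTH18 (AT4G30280), XTH19 (AT4G30290), XTH33 (AT1G10550), XTH4 (AT2G06850) and XTH15 (AT4G14130). They were chosen by locus, with no measured value in the rule, but with earlier results of these data known. They are 10 of 27655 loci in the deposited table and 10 of the 33 genes of the family. All 10 passed the filter on low values, which kept the 19667 loci that reached 1 TPM in at least 3 libraries. RNA was sequenced from 12 libraries of seedlings, 7 d old by the sample titles and 1 d younger by the series' design text, that had grown on Murashige and Skoog medium in continuous light. The flu toc33 light group (genotype flu/toc33-1) and the flu light group (genotype flu) had 4 h of darkness and then 1 h of light. The flu toc33 dark and flu dark groups were taken at the end of the 4 h of darkness. Each group has 3 libraries. All 4 groups carry the flu mutation, which lets the chlorophyll precursor protochlorophyllide build up in darkness, so that singlet oxygen forms in the chloroplast once light returns. The double mutant also carries toc33-1, an allele of the gene for a receptor of the chloroplast protein import machinery. No wild type was analysed here, and light, singlet oxygen and the additional 1 h of time cannot be told apart. The labels name the tissue Leaf and the titles name seedlings.

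XTH enzymes work in the cell wall, where they cut a xyloglucan chain and join the new end to another chain or, in some members, to water. Xyloglucan is the hemicellulose that ties cellulose microfibrils together in the primary wall of plants such as Arabidopsis, so the enzymes can both loosen a wall and reinforce it. The genes are known for responses to touch, temperature, darkness, hormones and shade, and TCH4 was named as a touch-induced gene.

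Values are in TPM, the share of a library's transcripts that a gene holds after its length is allowed for, so levels of different genes can be set side by side, while the number of reads behind them is unknown. In these bulk samples fewer cells of a type and less RNA per cell cannot be told apart. Differences are log2 changes of TPM + 1 with their standard error (SE) from limma, a linear model over all loci, and a gene is called at an adjusted p under 0.05 (Benjamini-Hochberg over the 19667 loci). Replicates correlated across loci at 0.992 to 0.996, and flu dark replicate 3 gave the 2 lowest of these values. Whether the replicates of a group came from separately grown seedlings is not stated, and the p-values reflect no more than the scatter among these libraries, part or all of which may be technical. TOC33 (AT1G02280) stood at 3.76 to 4.28 TPM in flu toc33 light, 48.2 to 49.4 TPM in flu toc33 dark, between 169 and 174 TPM in flu light and 194 to 216 TPM in flu dark. The transcript was lower in every double-mutant library than in any flu library, and within the double mutant the lit mean was 12.2-fold below the dark mean. The labels do not explain the TOC33 signal that remained in the dark double-mutant libraries, on which the dark comparison, the light response of flu toc33 and the interaction rest. Leaf markers (5 genes, RBCS1A and RCA among them) summed to 27174 to 29505 TPM over the 12 libraries, and 12 root markers to 6.33 to 16.6 TPM with none at 0 in a whole group.

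**Figure D1:**
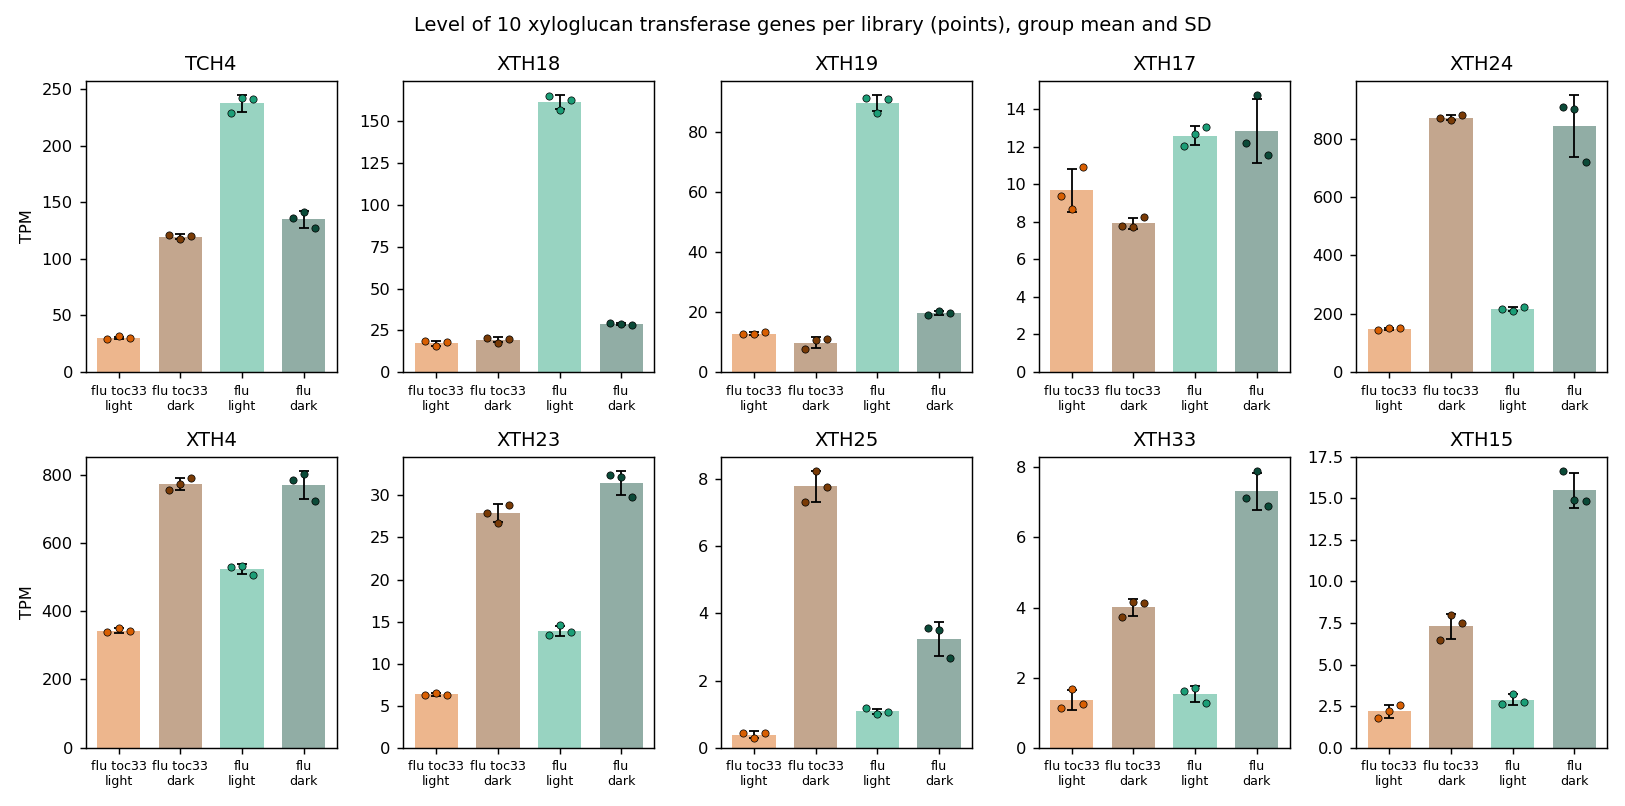
TPM (vertical axis, linear, from 0, its own scale for each gene) of 10 XTH genes in flu toc33 light, flu toc33 dark, flu light and flu dark. Points are libraries, bars are means and error bars are SD (n = 3); TCH4, XTH18 and XTH19 are highest in flu light, and each lit group is below the dark group of its genotype for XTH24, XTH4, XTH23, XTH25, XTH33 and XTH15.

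The light period separated the genes into those that rose in flu and those that fell in it. Light raised 3 of the 10 genes in flu, TCH4, XTH18 and XTH19, lowered 6, and left XTH17 uncalled. Over all loci tested 61.6% were called for the light response of flu, 28.2% higher and 33.4% lower. Those calls, 5547 loci higher and 6571 lower, became 4696 and 8636 with quantile normalization and 6112 and 5959 with median-ratio scaling, while the counts of 3 and 6 genes stayed as they were. Groups did not overlap for 9 of the 10 genes, beside 63.6% of all loci. In flu toc33, light raised XTH17 and XTH19 and lowered 7 genes, TCH4 among them, and XTH18 was not called. There 71% of loci were called, 40.4% higher and 30.6% lower, and groups did not overlap for 9 of the 10 genes, beside 77.5% of all loci. Those calls, 7939 loci higher and 6025 lower, became 6988 and 7150 with quantile normalization and 7176 and 6887 with median-ratio scaling. On the log2(TPM + 1) scale at least a 2-fold change was called for 7 of the 10 genes in each genotype, beside 12.8% of loci in flu and 16% in flu toc33. With 5 TPM added, XTH23, XTH25 and XTH33 changed by less than 2-fold in flu, at a log2 of -0.95, -0.44 and -0.92. So did XTH33 and XTH15 in flu toc33, at -0.50 and -0.78. The median log2 change of the 10 genes was -0.79 in flu and -1.28 in flu toc33, beside -0.0375 and 0.0718 over all loci tested.

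TCH4, the touch-induced member, moved in opposite directions. It stood at 29.6, 31.4 and 29.98 TPM in flu toc33 light, against 121, 118 and 121 TPM in its dark libraries. In flu the lit libraries had 229, 242 and 242 TPM, against 136, 142 and 127 TPM in flu dark. Lit libraries were thus all below the dark ones in the double mutant and all above them in flu, with no overlap. The log2 change with light was -1.95 ± 0.0438 (SE) in flu toc33 (limma, adjusted p = 7.15e-14) and 0.81 ± 0.0438 in flu (adjusted p = 1.20e-09). Of all loci tested, 2.39% were called higher with light in flu and lower in flu toc33, and TCH4 was 1 of the 10 genes to do so.

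XTH18 and XTH19 lie next to each other on chromosome 4 and encode close relatives known mainly from roots and hypocotyls. XTH18 had 18.6, 15.6 and 17.7 TPM in flu toc33 light, against 20.4, 17.5 and 19.9 TPM in flu toc33 dark. Its flu light libraries had 165, 157 and 163 TPM, against 29.2, 28.9 and 28.0 TPM in flu dark. Only the double-mutant groups overlapped, and the flu light libraries stood far above the other 9. The mean in flu light was 5.64 times that in flu dark (log2 change 2.45 ± 0.0663, limma, adjusted p = 6.65e-13). In flu toc33 the change was -0.15 (95% confidence interval -0.29 to -0.00677, limma, adjusted p = 0.0575), and this call depended on the setting. XTH18 was called lower with quantile normalization (-0.20, limma, adjusted p = 0.0209), with median-ratio scaling (-0.22, adjusted p = 0.0134) and without flu toc33 dark replicate 2 (-0.21, adjusted p = 0.011), flu toc33 light replicate 1 (-0.20, adjusted p = 0.0214) or flu dark replicate 3 (-0.15, adjusted p = 0.0473).

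XTH19 followed with 12.6, 12.51 and 13.2 TPM in flu toc33 light and 7.80, 10.8 and 10.9 TPM in flu toc33 dark. In flu it had 91.3, 86.3 and 90.9 TPM in the light, against 18.9, 20.5 and 19.6 TPM in the dark. All lit libraries exceeded the dark ones of their genotype, by a log2 change of 0.36 ± 0.0921 in flu toc33 (limma, adjusted p = 0.00307) and 2.13 ± 0.0921 in flu (adjusted p = 1.04e-10). Without flu toc33 dark replicate 1, the lowest of that group, the change in flu toc33 was 0.22 (limma, adjusted p = 0.0037). The ratio of XTH18 to XTH19 was 1.36 ± 0.118 (SD, n = 3) in flu toc33 light, 2.03 ± 0.525 in flu toc33 dark, 1.81 ± 0.0143 in flu light and 1.46 ± 0.0719 in flu dark. How an abundance estimate shares reads between such similar copies is uncertain.

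XTH17, a relative of XTH18 and XTH19 on chromosome 1, did not share their rise in flu. It had 9.39, 8.69 and 10.9 TPM in flu toc33 light and 7.75, 7.71 and 8.27 TPM in flu toc33 dark, with 12.02, 12.7 and 13.0 TPM in flu light and 12.2, 14.7 and 11.5 TPM in flu dark. The flu groups overlapped, at a log2 change of -0.0208 (95% confidence interval -0.22 to 0.18, limma, adjusted p = 0.861). The change in flu toc33, 0.25 ± 0.0916 (limma, adjusted p = 0.0235), was not called under quantile normalization (0.13, adjusted p = 0.192), median-ratio scaling (0.19, adjusted p = 0.0672), with the most abundant transcript alone (0.17, adjusted p = 0.143) or without flu toc33 light replicate 3 (0.17, adjusted p = 0.122), flu toc33 dark replicate 1 (0.24, adjusted p = 0.0621) or replicate 2 (0.24, adjusted p = 0.0643).

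Because these genes are known from roots, the root markers stand beside them. The 12 markers, among them the root hair gene COBL9 and the endodermal CASP1, summed to 14.7 to 16.6 TPM in flu toc33 light, 14.0 to 15.7 TPM in flu toc33 dark, between 6.33 and 6.95 TPM in flu light and 15.4 to 15.8 TPM in flu dark. Of the 6 that were tested, 5 were called lower and none higher in flu light against flu dark, beside 33.4% and 28.2% of all loci. The root sum was therefore lowest in the group in which XTH18 and XTH19 were highest. Its part in the values of XTH17, XTH18 and XTH19 was not tested.

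**Figure D2:**
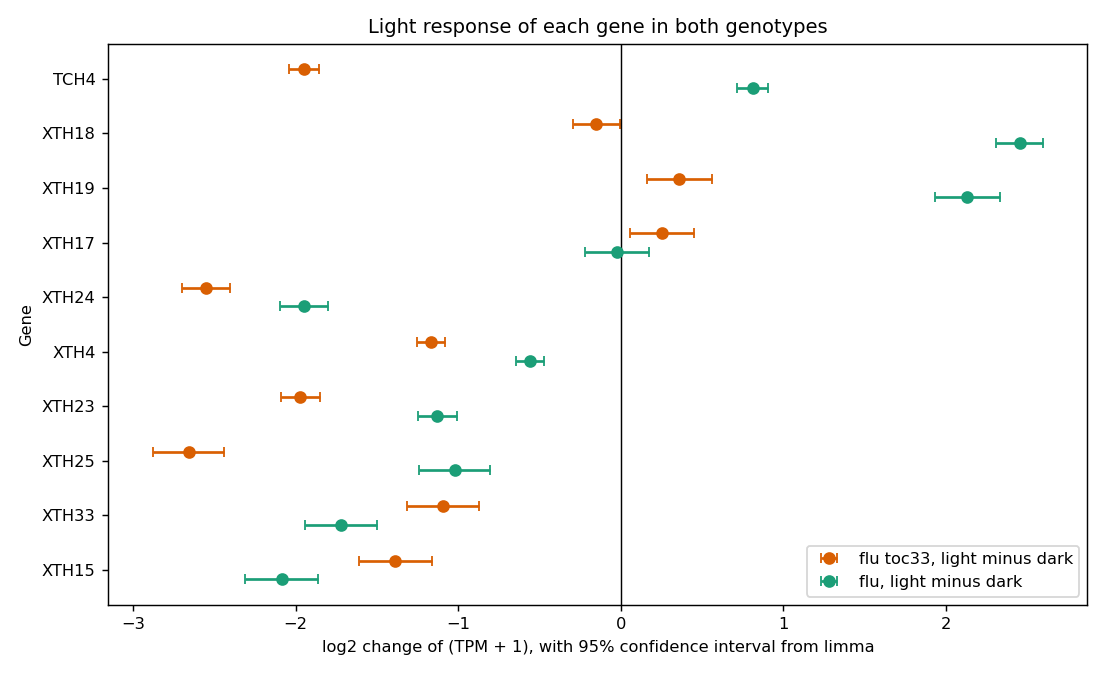
Log2 change of TPM + 1 (horizontal axis), light minus dark, for each of the 10 genes in flu toc33 and in flu. Points are estimates and bars 95% confidence intervals from limma (3 libraries a group); TCH4 lies at -1.95 in flu toc33 and 0.81 in flu, XTH18 at -0.15 and 2.45, and 6 genes lie left of 0 in both genotypes.

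The 6 genes that fell in both genotypes include XTH24 and XTH4, the 2 most abundant of the 10 in each group except flu light, where TCH4 stood above XTH24. Over all loci 21.1% were called lower with light in both. XTH24, also known as MERI5 and SEN4 from its expression in meristems and senescing leaves, had 143, 150.2 and 151 TPM in flu toc33 light, against 872, 865 and 882 TPM in flu toc33 dark. In flu it had 215, 210.4 and 224 TPM in the light and 908, 903 and 721 TPM in the dark, where replicate 3 was the low one. XTH24 kept 16.96% of its dark level in lit flu toc33 and 25.7% in lit flu, with log2 changes of -2.55 ± 0.0685 (limma, adjusted p = 4.42e-13) and -1.95 ± 0.0685 (adjusted p = 1.13e-11).

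XTH4, a strongly expressed endotransglucosylase of growing tissues, had 338, 351 and 341 TPM in flu toc33 light and 755, 773 and 790.4 TPM in flu toc33 dark. Its flu light libraries had 531, 532 and 506 TPM, against 785, 803 and 723 TPM in flu dark. The lit groups lay below the dark ones without overlap, by -1.17 ± 0.0393 in flu toc33 (limma, adjusted p = 5.07e-12) and -0.56 ± 0.0393 in flu (adjusted p = 2.39e-08). XTH4 had the smallest fall of the 6 genes in flu on the log2(TPM + 1) scale. With 5 TPM added its change was -0.55 and that of XTH25 was -0.44, so this rank depends on the pseudocount.

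XTH23 (XTR6), a close relative of TCH4, did not share its rise in flu. It ranged from 6.26 to 6.55 TPM in flu toc33 light, 26.8 to 28.9 TPM in flu toc33 dark, between 13.3 and 14.5 TPM in flu light and 29.9 to 32.5 TPM in flu dark. Its log2 changes in the light were -1.97 ± 0.0552 in flu toc33 (limma, adjusted p = 6.83e-13) and -1.13 ± 0.0552 in flu (adjusted p = 4.13e-10).

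XTH25, which sits beside TCH4 on chromosome 5, was the least abundant member in every group but flu toc33 dark. It had 0.445, 0.285 and 0.449 TPM in flu toc33 light, against 7.32, 8.25 and 7.78 TPM in flu toc33 dark. In flu it had 1.17, 1.00 and 1.07 TPM in the light, against 3.57, 3.50 and 2.67 TPM in the dark. The lit double mutant held 5.05% of its dark mean, and lit flu 33.3%. On the log2(TPM + 1) scale the changes were -2.66 ± 0.102 (limma, adjusted p = 2.11e-11) and -1.02 ± 0.102 (adjusted p = 9.64e-07). At such low levels the size of a change depends on the pseudocount: with 0.1 TPM added in place of 1 the change in flu toc33 was -4.02, and with 5 TPM it was -1.25.

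XTH33, a member predicted to carry a membrane anchor, ranged from 1.14 to 1.67 TPM in flu toc33 light and 3.73 to 4.16 TPM in flu toc33 dark. In flu it ranged from 1.27 to 1.69 TPM in the light and 6.91 to 7.91 TPM in the dark. XTH15 (XTR7), known as a shade-induced gene of elongating organs, ranged from 1.79 to 2.59 TPM in flu toc33 light and 6.48 to 7.95 TPM in flu toc33 dark. In flu XTH15 ranged from 2.64 to 3.25 TPM in the light and 14.8 to 16.7 TPM in the dark. Neither gene's lit groups overlapped the dark ones, and the dark groups of the 2 genotypes did not overlap each other, with flu the higher. The log2 changes of XTH33 were -1.09 ± 0.103 in flu toc33 (limma, adjusted p = 3.61e-07) and -1.72 ± 0.103 in flu (adjusted p = 3.87e-09). Those of XTH15 were -1.39 ± 0.105 in flu toc33 (limma, adjusted p = 3.31e-08) and -2.08 ± 0.105 in flu (adjusted p = 5.42e-10). With a pseudocount of 5 TPM the changes were smaller, at -0.50 in flu toc33 and -0.92 in flu for XTH33 and at -0.78 and -1.38 for XTH15.

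Whether light acted differently in the double mutant and in flu was tested as an interaction. It was called for 9 of the 10 genes, 2 with a more positive response in flu toc33 and 7 with a more negative one. Over all loci 56.7% were called, 31.6% more positive and 25.1% more negative, and median-ratio scaling turned that split from 6220 and 4931 loci to 4881 and 6214. TCH4 had the largest of the 10, at -2.76 ± 0.0619 (limma, adjusted p = 7.96e-13), followed by XTH18 at -2.60 ± 0.0937 (adjusted p = 5.72e-11), XTH19 at -1.77 ± 0.13 (adjusted p = 7.02e-08) and XTH25 at -1.64 ± 0.144 (adjusted p = 4.45e-07). The XTH25 value was -2.52 with a pseudocount of 0.1 TPM and -0.81 with 5 TPM, so its place after XTH19 depends on the pseudocount. XTH23, XTH4 and XTH24, which fell in both genotypes, fell further in flu toc33, with differences of -0.84, -0.61 and -0.60 (limma, adjusted p = 7.26e-07, 6.06e-07 and 1.27e-04). XTH15 and XTH33 fell less in flu toc33, with differences of 0.70 and 0.63 (limma, adjusted p = 0.00116 and 0.0023). With a pseudocount of 5 TPM the XTH33 difference was 0.41. XTH17 was not called, at 0.28 (95% confidence interval -0.00449 to 0.55, limma, adjusted p = 0.0867).

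After 4 h of darkness, before the light returned, 7 of the 10 genes were lower in flu toc33 dark than in flu dark, 1 was higher and 2 were not called. Of all loci tested 41.4% were called, 20.9% higher and 20.5% lower. Groups did not overlap for 8 of the 10 genes, beside 49.5% of all loci, and 1 of the 10, XTH25, was called with at least a 2-fold difference on the log2(TPM + 1) scale, beside 2.54% of all loci. With 5 TPM added XTH25 differed by a log2 of 0.63, which is under 2-fold. The median log2 difference of the 10 genes was -0.36, beside 0.0121 over all loci. XTH25 was the one that was higher, at 2.40 times the flu dark mean (log2 difference 1.05 ± 0.102, limma, adjusted p = 2.61e-06). XTH15, XTH19, XTH33, XTH17 and XTH18 were lower, at 47.2%, 50.0%, 54.7%, 61.6% and 67.3% of the flu dark mean. Their log2 differences were -0.99 ± 0.105, -0.94 ± 0.0921, -0.73 ± 0.103, -0.63 ± 0.0916 and -0.55 ± 0.0663 (limma, adjusted p = 5.71e-06, 2.77e-06, 7.45e-05, 9.93e-05 and 1.88e-05). TCH4 and XTH23 were lower by less, by a log2 of 0.17 each (limma, adjusted p = 0.00694 and 0.0236). The call of XTH23 was lost without either flu dark replicate 1 (-0.15, limma, adjusted p = 0.0753) or replicate 2 (-0.16, adjusted p = 0.0731), without flu toc33 dark replicate 1 (-0.17, adjusted p = 0.0585) or replicate 2 (-0.14, adjusted p = 0.0977), and in a fit of the 2 dark groups alone (-0.17, adjusted p = 0.0501). The abundant pair was not called: XTH24 differed by 0.0572 (95% confidence interval -0.0907 to 0.21, limma, adjusted p = 0.536) and XTH4 by 0.00603 (-0.0789 to 0.0909, adjusted p = 0.919).

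In the light 9 of the 10 genes were lower in flu toc33 than in flu and none was higher. This comparison and those above share libraries, so their values are not independent. Over all loci 66.8% were called, 39% higher and 27.9% lower, and with median-ratio scaling 6034 loci were higher and 6900 lower, against 7662 and 5478. Groups did not overlap for 9 of the 10 genes, beside 74% of all loci, and 4 were called with at least a 2-fold difference on the log2(TPM + 1) scale, beside 11.4% of all loci. XTH23, among those 4, ranged from -1.11 to -0.73 over the other settings, so its place in that count depends on the setting. The median of the 10 genes was -0.59, beside 0.0766 over all loci. The largest differences were those of XTH18, TCH4 and XTH19, at 10.7%, 12.8% and 14.3% of the flu light mean. Their log2 differences were -3.15 ± 0.0663 (limma, adjusted p = 1.05e-13), -2.93 ± 0.0438 (adjusted p = 7.31e-15) and -2.72 ± 0.0921 (adjusted p = 1.11e-11). XTH23 stood at 45.8% of flu light, XTH4 at 65.7% and XTH24 at 68.3%, with log2 differences of -1.01 ± 0.0552, -0.61 ± 0.0393 and -0.55 ± 0.0685 (limma, adjusted p = 1.57e-09, 1.02e-08 and 8.80e-06). XTH25 (-0.58 ± 0.102) and XTH17 (-0.35 ± 0.0916) were also lower (limma, adjusted p = 1.92e-04 and 0.0038), and XTH25 differed by -1.28 with a pseudocount of 0.1 TPM and -0.17 with 5 TPM. XTH15 was lower by a log2 of 0.29 (limma, adjusted p = 0.0246), a call that was lost with a pseudocount of 5 TPM (-0.14, adjusted p = 0.0616) and without flu toc33 light replicate 1 (-0.20, adjusted p = 0.119) or replicate 2 (-0.29, adjusted p = 0.0515) or flu light replicate 2 (-0.23, adjusted p = 0.104). XTH33 was not called, at -0.10 (95% confidence interval -0.33 to 0.12, limma, adjusted p = 0.389).

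**Figure D3:**
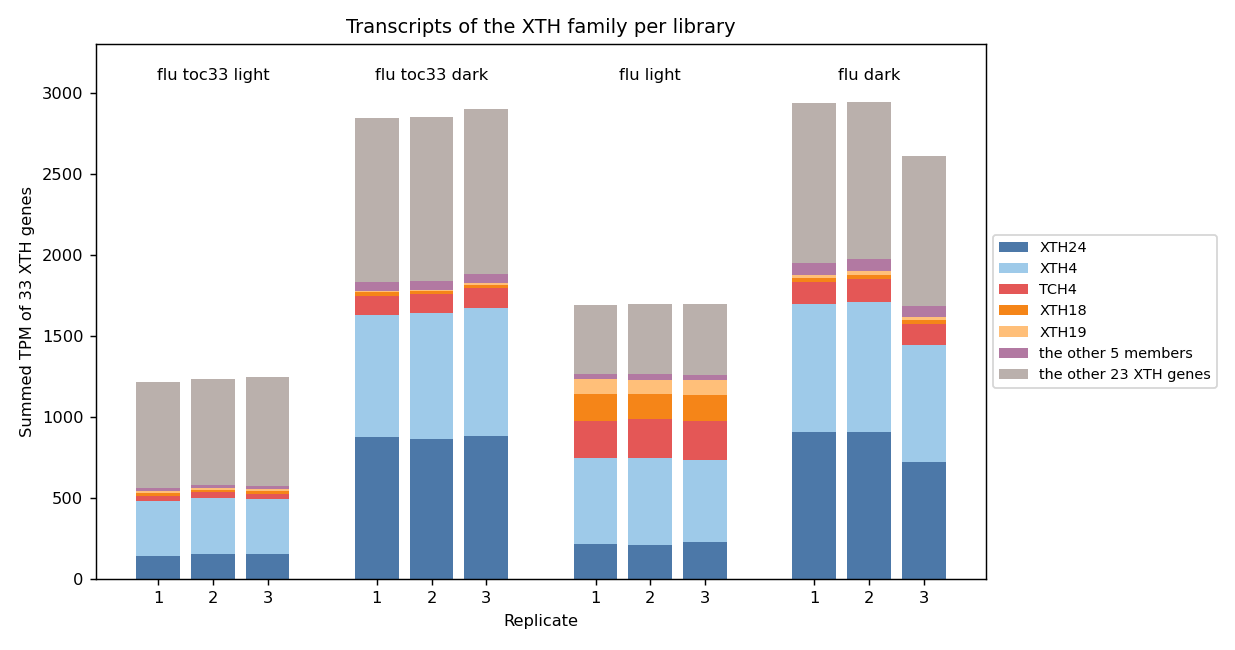
Summed TPM of the 33 XTH genes (vertical axis, linear, from 0) in each library, stacked as XTH24, XTH4, TCH4, XTH18, XTH19, the other 5 of the 10 genes and the other 23, for flu toc33 light, flu toc33 dark, flu light and flu dark (replicates 1 to 3 in each). The sum is lowest in flu toc33 light, and the TCH4, XTH18 and XTH19 segments are tallest in flu light.

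Summed in TPM, which is a share of each library, the family as a whole was smaller in the lit groups. The 33 genes summed to 1230 ± 15.5 TPM (SD, n = 3) in flu toc33 light, 2863 ± 29.5 TPM in flu toc33 dark, 1693 ± 4.74 TPM in flu light and 2830 ± 189.8 TPM in flu dark. The 10 genes made up 46.5% ± 0.447 of it in flu toc33 light, 64.6% ± 0.298 in flu toc33 dark, 74.4% ± 0.321 in flu light and 65.9% ± 1.30 in flu dark. XTH24 and XTH4 together held 40.0%, 57.5%, 43.7% and 57.0% in the same order of groups. TCH4 held 2.46% ± 0.0718 of the family in flu toc33 light, 4.18% ± 0.0639 in flu toc33 dark, 14.0% ± 0.41 in flu light and 4.77% ± 0.129 in flu dark. XTH18 held 1.41%, 0.674%, 9.55% and 1.01%. In flu light the family thus held a smaller share of the library than in flu dark, and TCH4 and XTH18 made up larger parts of the family.

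The order of the 10 genes changed with it. In flu toc33 light XTH4 was first, then XTH24 and TCH4, with XTH25 last and no overlap between any neighbours. In flu toc33 dark it was XTH24, XTH4 and TCH4, with no overlap between neighbours down to XTH19. XTH19 overlapped XTH17, XTH17 overlapped XTH25 and XTH25 overlapped XTH15, while XTH33 came last without overlap. In flu light TCH4 (238 TPM) stood second, between XTH4 (523 TPM) and XTH24 (217 TPM), with XTH18 (162 TPM) next and no overlap between any neighbours. In flu dark XTH24 and XTH4 came first and overlapped, and no other neighbours did.

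The other 23 genes of the family were examined for comparison, and 18 of them were tested. In flu toc33 light against dark 3 rose and 9 fell, and in flu 1 rose and 14 fell, with median log2 changes of -0.33 and -0.84. Of all loci tested, 40.4% rose and 30.6% fell in flu toc33, and 28.2% rose and 33.4% fell in flu. XTH32 rose in both genotypes, to 78.2 ± 1.70 TPM (SD, n = 3) in flu toc33 light, against 11.3 ± 0.636 TPM in flu toc33 dark, and to 24.1 ± 1.19 TPM in flu light, against 12.9 ± 1.35 TPM in flu dark. XTH31, which with XTH32 forms the branch of the family known for hydrolase activity, rose to 57.5 ± 1.39 TPM in flu toc33 light, against 17.6 ± 0.595 TPM in flu toc33 dark. In flu XTH31 fell to 18.2 ± 1.41 TPM in the light, against 21.9 ± 2.21 TPM in the dark. XTH7 had 180.0 ± 3.72 TPM in flu toc33 light and 103 ± 0.326 TPM in flu toc33 dark, with 88.4 ± 2.43 TPM in flu light and 123 ± 4.79 TPM in flu dark. These 3 genes therefore had the opposite sign of difference to TCH4 between lit flu toc33 and lit flu, at log2 differences of 1.66, 1.61 and 1.02 (limma, adjusted p = 1.04e-10, 1.48e-10 and 1.97e-11). XTH6, XTH9, XTH16 and XTH27 fell with light in both genotypes. XTH9 and XTH16 fell by a log2 of 0.62 and 0.80 in flu toc33 and 1.52 and 1.86 in flu. XTH6 and XTH27 fell by 1.85 and 2.13 in flu toc33 and 1.33 and 1.53 in flu.

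In the light 10 of these 18 genes were higher and 4 lower in flu toc33 than in flu, beside none and 9 of the 10 genes. The shares of all loci were 39% higher and 27.9% lower. The higher ones include XTH12, XTH13, XTH14 and XTH26, with means of only 0.375, 0.0671, 1.99 and 1.44 TPM in flu light. In the dark 6 of the 18 were higher and 5 lower, beside 20.9% and 20.5% of all loci. There XTH6 was higher by a log2 of 0.50 and XTH16 lower by a log2 of 0.52 (limma, adjusted p = 2.29e-06 and 2.46e-05). The interaction was called for 7 of the 18 with a more positive and 3 with a more negative response in flu toc33. The shares of all loci were 31.6% and 25.1%. Counts of the 10 and of the 18 genes are set side by side as descriptions, and the difference between the lists was not tested.

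**Figure D4:**
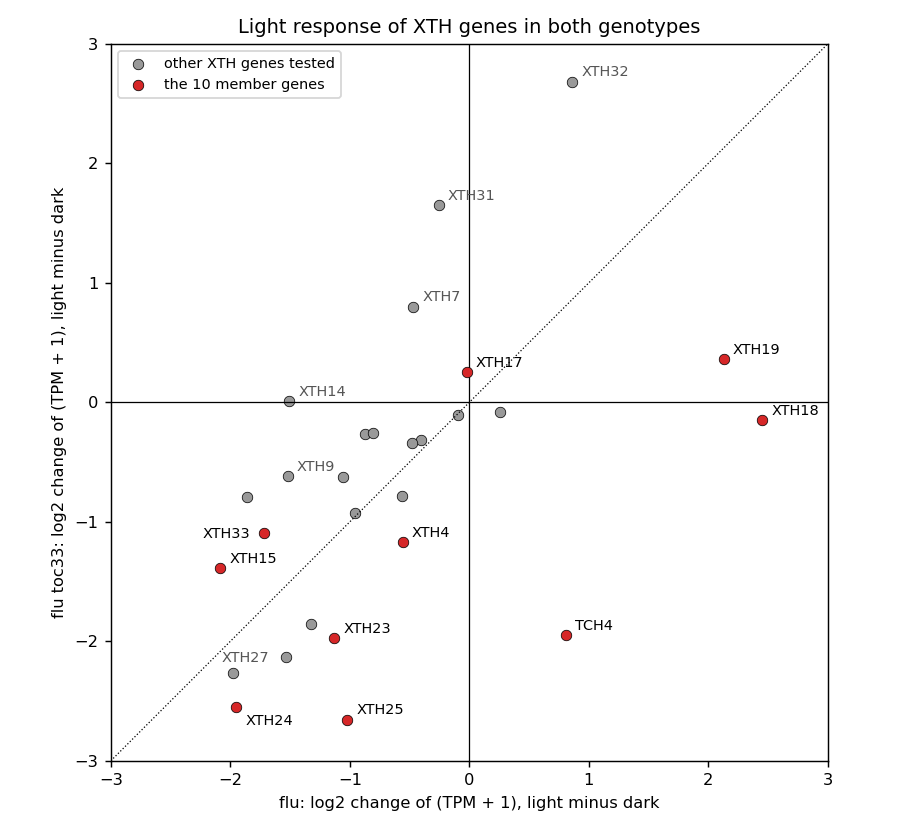
Log2 change of TPM + 1 with light in flu toc33 (vertical axis) against that in flu (horizontal axis) for the 10 genes (red) and the 18 other XTH genes tested (grey); the dotted line marks equal change. TCH4, XTH18 and XTH19 lie to the lower right, far from the line, and XTH7, XTH31 and XTH32 lie above it.

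Genes that make and trim xyloglucan did not share one direction. Of 14 synthesis genes, 7 rose and 3 fell with light in flu toc33, and 5 rose and 2 fell in flu, with medians of 0.24 and -0.0859. Of all loci tested, 40.4% rose and 30.6% fell in flu toc33, and 28.2% rose and 33.4% fell in flu. The galactosyltransferases XLT2 and MUR3 rose in both genotypes. XLT2 reached 28.5 ± 0.619 TPM (SD, n = 3) in flu toc33 light, against 11.7 ± 1.05 TPM in flu toc33 dark, with 47.0 ± 0.644 TPM in flu light, against 15.0 ± 2.75 TPM in flu dark. MUR3 reached 17.1 ± 1.30 TPM in flu toc33 light, against 11.6 ± 0.774 TPM in flu toc33 dark, with 29.1 ± 0.794 TPM in flu light, against 13.6 ± 0.448 TPM in flu dark. The glucan synthase gene CSLC4, which makes the backbone, and the xylosyltransferase gene XXT1 fell, by a log2 of 1.18 and 1.69 in flu toc33 and 0.46 and 0.36 in flu. XXT5 rose by 0.28 in flu toc33 and 0.47 in flu. In the light 5 synthesis genes were higher and 7 lower in flu toc33 than in flu, with CSLC4 at -1.13, XXT1 at -1.27 and MUR3 at -0.73. In the dark 1 was higher and 7 lower, the higher one being XXT4, at 0.34, and the lower ones including AXY4, a xyloglucan acetyltransferase, at -0.38 and CSLC4 at -0.42 (limma, adjusted p = 0.00135, 4.42e-04 and 9.00e-04). Between the genotypes, 39% of all loci were higher and 27.9% lower in the light, and 20.9% higher and 20.5% lower in the dark. CSLC5 rose in the lit double mutant, at a log2 change of 0.76 (limma, adjusted p = 5.23e-08).

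Of 5 genes for xyloglucan trimming, 1 rose and 3 fell with light in each genotype. Counts of this list and of those below stand beside the same shares of all loci as the synthesis genes. BGAL10, a beta-galactosidase, fell by a log2 of 0.87 in flu toc33 and 0.49 in flu. The fucosidase AXY8 fell by 0.95 in flu toc33 and stood at -0.01 ± 0.0708 in flu (limma, adjusted p = 0.888). XYL1, an alpha-xylosidase, fell by 0.73 in flu (limma, adjusted p = 1.88e-07) and stood at -0.12 in flu toc33 (adjusted p = 0.104). AT5G20950 fell by 0.81 in flu toc33 and 0.49 in flu, and AT5G04885 rose by 0.76 and 0.27 (limma, adjusted p = 1.20e-06 and 0.0109). In the light 2 of the 5 were higher and 3 lower in flu toc33 than in flu, and in the dark 1 was lower, BGAL10 at -0.18, and none higher.

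Touch-induced genes that encode calmodulin and calmodulin-like calcium sensors rose in both genotypes, in 3 of 3 cases each, and by less in flu toc33. Of all loci tested, 40.4% rose in flu toc33 and 28.2% in flu. TCH3 (CML12) reached 335 ± 9.64 TPM (SD, n = 3) in flu toc33 light, against 258 ± 2.40 TPM in flu toc33 dark, with 1388 ± 19.5 TPM in flu light, against 286 ± 21.7 TPM in flu dark. TCH2 (CML24) reached 80.6 ± 1.85 TPM in flu toc33 light, against 35.6 ± 0.265 TPM in flu toc33 dark, with 173 ± 3.67 TPM in flu light, against 34.4 ± 4.32 TPM in flu dark. CAM2, also named TCH1, rose by a log2 of 0.40 in flu toc33 and 1.16 in flu (limma, adjusted p = 1.16e-06 and 1.78e-11). TCH4 fell in flu toc33 while these 3 genes rose there, and the interaction was called for all 3, at -1.90 for TCH3, -1.15 for TCH2 and -0.75 for CAM2 (limma, adjusted p = 2.74e-11, 2.42e-07 and 1.55e-07). In the light all 3 were lower in flu toc33 than in flu, and in the dark 2 were lower and TCH2 was not called, at 0.06 (adjusted p = 0.524).

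Expansins, wall proteins that loosen cellulose networks without cutting chains, split evenly. Of 19 genes 9 rose and 8 fell with light in flu toc33, and 9 rose and 7 fell in flu. The shares of all loci were 40.4% and 30.6% in flu toc33, and 28.2% and 33.4% in flu. EXPA5, EXPA10 and EXPA15 rose in both genotypes, by a log2 of 2.08, 1.14 and 2.32 in flu toc33 and 1.15, 1.23 and 1.495 in flu. EXLA2, an expansin-like gene, had the same signs as TCH4, with 7.80 ± 0.278 TPM (SD, n = 3) in flu toc33 light, 10.1 ± 0.213 TPM in flu toc33 dark, 36.0 ± 0.392 TPM in flu light and 13.0 ± 0.534 TPM in flu dark. EXPA16 fell to 10.7 ± 0.686 TPM in flu toc33 light, against 36.2 ± 2.22 TPM in flu toc33 dark, and rose to 50.2 ± 1.32 TPM in flu light, against 43.4 ± 1.20 TPM in flu dark. EXLA1 and EXPA8 fell in both genotypes, by 2.69 and 2.13 in flu toc33 and 0.98 and 1.82 in flu. In the dark 13 expansins were lower in flu toc33 than in flu and none was higher, beside 20.5% and 20.9% of all loci. Among the lower ones were EXPB3 at -0.94, EXPA8 at -0.87 and EXPA15 at -0.83 (limma, adjusted p = 1.37e-07, 1.78e-06 and 2.25e-06). In the light 5 expansins were higher and 12 lower in flu toc33, beside 39% and 27.9% of all loci.

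Brassinosteroids are growth hormones that are known to induce TCH4. Of 9 genes of their synthesis and signalling, 2 rose and 6 fell with light in flu toc33, and none rose and 8 fell in flu. The shares of all loci were 40.4% and 30.6% in flu toc33, and 28.2% and 33.4% in flu. The biosynthetic gene CPD fell to 83.1 ± 0.504 TPM (SD, n = 3) in flu toc33 light, against 278 ± 10.8 TPM in flu toc33 dark, and to 124 ± 0.909 TPM in flu light, against 228 ± 5.11 TPM in flu dark. BR6OX2 and ROT3, also of the synthesis route, rose by a log2 of 1.45 and 0.81 in flu toc33 and fell by 0.50 and 0.56 in flu. The transcription factor gene BES1 fell by 1.20 in flu toc33 and 0.60 in flu, and BAS1, which inactivates the hormone, by 1.33 and 1.09. In the light 3 of the 9 were higher and 4 lower in flu toc33 than in flu, with BR6OX2 at 2.24 and ROT3 at 1.64. In the dark 3 were higher and none lower: CPD at 0.28, BR6OX2 at 0.29 and ROT3 at 0.27 (limma, adjusted p = 1.67e-05, 0.00675 and 0.00826).

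The loci whose pattern was most like that of TCH4 were found by Pearson's correlation of log2(TPM + 1) over the 12 libraries, among 16200 loci with a group mean of at least 5 TPM. The libraries fall into 4 groups, so the coefficient is a description of likeness. The 5 closest were WAKL6 (AT1G16110), SIS (AT5G02020), AGB1 (AT4G34460), CRK2 (AT1G70520) and HIR2 (AT3G01290), at 0.993 to 0.994. Each was lowest in flu toc33 light and highest in flu light, as TCH4 was, which the choice by likeness to TCH4 favours. WAKL6 reached a group mean of 5 TPM only in flu light, at 5.945 TPM. SIS had 3.24 ± 0.531 TPM (SD, n = 3) in flu toc33 light, 22.5 ± 0.282 TPM in flu toc33 dark, 45.3 ± 1.09 TPM in flu light and 21.2 ± 1.37 TPM in flu dark. HIR2 had 29.98 ± 0.893 TPM in flu toc33 light, 71.6 ± 0.983 TPM in flu toc33 dark, 118 ± 1.81 TPM in flu light and 89.4 ± 7.94 TPM in flu dark. AGB1, which encodes the beta subunit of the heterotrimeric G protein, covered a narrower range, with 40.2 ± 0.44 TPM in flu toc33 light, 51.8 ± 1.14 TPM in flu toc33 dark, 59.8 ± 1.23 TPM in flu light and 52.6 ± 0.605 TPM in flu dark.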

How the data were processed

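The table that the authors deposited holds TPM of 48359 transcripts in each of 12 libraries, made with kallisto 0.46.2 and sleuth 0.30.0 and TAIR10, per the submitters' processing notes; which transcripts were indexed, the strand setting and any filters: not given in the sources used here. TPM is scaled within a library, so genes that rise strongly push the others down, and depth, counting error and detection limits are unknown. Reads of similar XTH copies are shared out by the estimate.

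Transcripts were summed to 27655 loci, and names came from RefSeq genes of TAIR10.1 (27445 loci found), whose coordinates were not used. All 100 list entries were in the file, and 98 names in that table; the other 2 are given by locus. Loci had to reach 1 TPM in 3 or more libraries, and the 19667 that did were tested as log2(TPM + 1) with limma 3.58.1 (R 4.3.3), which fitted the 4 group means to the 12 libraries together, with two-sided moderated tests, a trend of the spread and Benjamini-Hochberg adjustment. Tables were made in Python 3.11.15 with numpy 2.4.6 and pandas 2.3.3, figures with matplotlib 3.10.9. The model was tested on simulated data.

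The members, lists and tests were chosen with earlier results of these data known. Named beside the 10 genes were the 3 genes of a list that had the lowest p-values for a comparison, all 5 or fewer of a short list, the 5 loci most like TCH4, chromosomal neighbours and TOC33. XTH12 and XTH26, which were low in flu light, and single leaf and root markers were named outside this rule. Other settings tried were a pseudocount of 0.1 or 5 TPM, a filter at 5 TPM or none, quantile normalization, median-ratio scaling, the replicate number as a block, the compared groups alone, a robust spread, the most abundant transcript alone and leaving out each library. Lists were described by counts and medians and not tested as sets.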

Additional observations from a re-analysis of the deposited data

Results flagged for a closer look

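For 9 of the 10 genes the light response differed between the genotypes by a test of the difference itself, the interaction in limma (Benjamini-Hochberg over all loci), beside 56.7% of all loci tested. The response in flu toc33 minus that in flu was -2.76 for TCH4, -2.60 for XTH18, -1.77 for XTH19, -1.64 for XTH25, -0.84 for XTH23, -0.61 for XTH4 and -0.60 for XTH24 on the log2(TPM + 1) scale. For XTH25 it was -2.52 with 0.1 TPM added and -0.81 with 5 TPM, so its place among these genes depends on the pseudocount. The difference was 0.70 for XTH15 and 0.63 for XTH33, the latter 0.41 with 5 TPM added. The response of TCH4 had opposite called signs in the 2 genotypes. That of XTH18, which rose in flu, was uncalled in flu toc33 (-0.15, limma, adjusted p = 0.0575) and was called lower there under 6 of the alternatives, with quantile normalization (adjusted p = 0.0209) and median-ratio scaling (adjusted p = 0.0134) among them. Groups of 3 libraries are too small for a test of single libraries that stand apart.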

How the results depend on the processing

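The 10 genes, 5 comparisons and 22 alternatives (21 for the interaction, to which the fit of 2 groups alone does not apply) gave 1090 values. Of these, 1059 kept the direction and the side of the threshold, 15 lost a call, 8 gained one and 8 changed sign. All 8 that changed sign were uncalled values near 0. XTH17 in flu light against flu dark was 0.0121 with median-ratio scaling and lay between -0.0881 and 0.076 over the fits that leave out a library, being 0.076 without the second flu dark library and 0.00901 without the first flu light one. In the dark XTH24 was -0.028 with quantile normalization and -0.0527 to 0.114 with a library left out, the lowest without flu dark replicate 3. XTH4 was -0.0628 with quantile normalization and -0.0389 to 0.0367 with a library left out, being -0.0389 without flu dark replicate 3 and -0.0103 without flu toc33 dark replicate 3. The number of the 10 genes that rose with light in flu toc33 was 1 instead of 2 with quantile normalization, with median-ratio scaling and with the most abundant transcript alone, and 1 to 2 over the 12 fits that leave out a library; XTH17 is the gene concerned. The interaction of XTH17 was called without flu dark replicate 3 (0.34, limma, adjusted p = 0.0277) or flu toc33 light replicate 2 (0.34, adjusted p = 0.0448). Called values moved by over 1.5 times in 18 cases, 12 of them with a pseudocount of 5 TPM and 3 with 0.1 TPM, for XTH25, XTH33 and XTH15, whose low levels make the change depend on it.

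No pairing by replicate number was seen: deviations from group means of same-numbered libraries correlated at -0.0847 to 0.0235 across loci. These values cannot show whether same-numbered libraries were grown or handled together, which the labels do not state. With the number as a replicate block, 11944, 13861, 7904 and 12936 loci were called in place of 12118, 13964, 8145 and 13140 (light in flu, light in flu toc33, genotype in the dark, genotype in the light) and 10948 in place of 11151 for the interaction. The block added XTH18 (-0.15, limma, adjusted p = 0.0269) to the genes that fell in flu toc33 and changed no other call of the 10. Scaling moved the median of all loci by less than 0.1 in every comparison. Depth is unknown for TPM, so values of XTH25 and XTH33 near 1 TPM carry a counting error that cannot be given.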

Other observations

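Several of the 10 genes lie in tandem with other XTH genes, by the order of protein-coding loci in the RefSeq table, and the ratios between neighbours differed among the groups. On chromosome 4 XTH24, XTH18 and XTH19 are consecutive. The ratio of XTH24 to XTH18 was 8.62 ± 0.979 (SD, n = 3) in flu toc33 light, 45.4 ± 3.51 in flu toc33 dark, 1.34 ± 0.0382 in flu light and 29.4 ± 3.15 in flu dark. On chromosome 5 TCH4 follows XTH25, and the ratio of TCH4 to XTH25 was 81.1 ± 25.1 in flu toc33 light, 15.4 ± 1.15 in flu toc33 dark, 221 ± 23.4 in flu light and 42.1 ± 5.01 in flu dark. XTH25 in turn follows XTH13, which had 1.62 ± 0.142 TPM in flu toc33 light, 2.18 ± 0.788 TPM in flu toc33 dark, 0.0671 ± 0.00562 TPM in flu light and 0.882 ± 0.268 TPM in flu dark.

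XTH14, next to XTH23 on chromosome 4, differed from it in the double mutant. It had 11.7 ± 0.398 TPM (SD, n = 3) in flu toc33 light and 11.7 ± 2.13 TPM in flu toc33 dark, with 1.99 ± 0.682 TPM in flu light and 7.35 ± 0.275 TPM in flu dark. Its light response was -1.51 ± 0.139 in flu (limma, adjusted p = 4.24e-07) and 0.0077 ± 0.139 in flu toc33 (adjusted p = 0.965). The summed root markers were likewise lowest in flu light, between 6.33 and 6.95 TPM. They stood at 14.7 to 16.6 TPM in flu toc33 light, 14.0 to 15.7 TPM in flu toc33 dark and 15.4 to 15.8 TPM in flu dark. Between the dark groups XTH14 was higher in flu toc33 (log2 difference 0.60, limma, adjusted p = 0.00372), while the root sum was not. The part of the root markers in the values of XTH14 was not tested. PUB18, a ubiquitin ligase gene beside XTH33, had 0.43 ± 0.144 TPM in flu toc33 light and 0.207 ± 0.0122 TPM in flu toc33 dark, with 4.02 ± 0.393 TPM in flu light and 0.398 ± 0.0778 TPM in flu dark, while XTH33 fell with light in both genotypes.

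Only XTH17 and XTH4 have more than 1 transcript in the table, 2 each. The main transcript held 89.8% to 100% of XTH17 and 99.6% to 99.9% of XTH4. The minor XTH4 transcript was lower in the light, with log2 changes of -1.45 in flu toc33 and -1.01 in flu (limma over single transcripts, adjusted p = 5.89e-05 and 0.00123). It had 0.387 to 0.580 TPM in flu toc33 light and 2.565 to 3.34 TPM in flu toc33 dark. In flu it had 0.3605 to 0.844 TPM in the light and 1.39 to 3.04 TPM in the dark. No other pseudocount was tried for single transcripts, and at such low levels the size of a change can depend on it.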
